A study of Mus musculus with 5 samples.

Results

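Connecting tubule (CNT) cells of the mouse kidney were examined in control kidneys and after aristolochic acid I (AAI), a plant toxin that injures the tubule. A cell barcode was taken as a CNT cell when it held at least 3 UMIs (unique molecular identifiers, each one captured RNA molecule) of Slc8a1 and Trpv5 together, at least 1 UMI of Calb1, no more UMIs of Slc12a3 than of Slc8a1 and Trpv5, and no UMI of the leukocyte gene Ptprc. Of 72896 barcodes, 60043 had 200 genes or more and no more than 30% of UMIs from mitochondrial genes, and 962 of these were CNT cells. Control 1 gave 557 of them, AKI 1 and AKI 2 gave 113 and 103, and CKD 1 and CKD 2 gave 160 and 29. The members were thus chosen by the measured UMIs of these 5 genes.

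The mice were male wild-type C57BL/6 animals aged 8 to 10 weeks. AKI (acute kidney injury) mice had received 3 mg/kg AAI intraperitoneally at intervals of 3 days for 2 weeks and were sampled at week 2. CKD (chronic kidney disease) mice had received the same course and were sampled at week 4, after a further 2 weeks without toxin, and the control was given vehicle and sampled at week 0. Kidneys were digested with collagenase IV and DNase I and sequenced in droplets with a 10x Genomics 3′ kit, as 1 control, 2 AKI and 2 CKD libraries. All comparisons with the control rest on that single library, and the study counts the paired libraries of AKI and CKD as separate samples without saying that each is a mouse of its own, so that p-values measure only the spread between these libraries, which may be technical.

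The CNT joins the distal convoluted tubule (DCT) to the collecting duct. Its cells take calcium from the urine through the apical channel TRPV5, carry it through the cell on calbindin-D28k (Calb1) and calbindin-D9k (S100g), and pass it to the blood through the exchanger NCX1 (Slc8a1) and the pump PMCA1 (Atp2b1), under the control of parathyroid hormone and vitamin D. They also reabsorb sodium through the epithelial sodium channel ENaC under aldosterone, secrete potassium, and release tissue kallikrein (Klk1). Principal cells, which move water, and intercalated cells, which move acid and base, are interspersed along the same segment.

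The libraries held between 90028670 and 121316769 UMIs, with a median of 3151 to 5774.5 UMIs in kept barcodes. The mitochondrial limit took out 38.7% of barcodes in control 1 and 11.1% to 12.7% elsewhere. Kept CNT cells with at most 15% mitochondrial UMIs were 191 of 557 in control 1, 76 of 113 in AKI 1 and 64 of 103 in AKI 2. In CKD 1 they were 80 of 160 and in CKD 2 12 of 29. Mitochondrial UMIs are part of the totals behind the levels below. Below, pairs of values for AKI or CKD are in the order of library 1 and 2, and runs of 5 values in the order control 1, AKI 1, AKI 2, CKD 1, CKD 2. CNT cells were deeper than the average kept barcode, with a median of 14130 UMIs in control 1, 21977 and 17417 in the AKI pair, and 11200 and 24963 in the CKD pair. No CNT cell carried a barcode that was also found in a cell of another library and was over 20 times deeper there.

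The genes of the rule were present at levels that the rule itself shaped, so they are given as a description. All levels below are UMIs per 10000 UMIs, summed over the cells of a library. Slc8a1 stood at 13.7 in control 1, 6.11 and 7.15 in the AKI pair, and 11.3 and 9.84 in the CKD pair. Trpv5 stood at 0.827, 1.49, 1.51, 1.49 and 1.16 in the same order, and Calb1 at 22.5, 13.7, 16.7, 20.2 and 17.6. Slc8a1 and Calb1 were thus highest in the control, while Trpv5 was lowest there. Cells with exactly 3 UMIs of Slc8a1 and Trpv5, just inside the threshold, numbered 97 in control 1, 13 and 14 in the AKI pair, and 29 and 2 in the CKD pair. Cells with exactly 2 UMIs, just outside it, that met every other criterion numbered 202, 29, 11, 69 and 6. S100g stood at 19.96, 18.9, 38.3, 33.4 and 0.388 just inside and at 16.4, 15.8, 36.5, 37.7 and 6.34 just outside. The cells on both sides of the threshold therefore held far less S100g than the whole population.

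S100g, the CNT marker that the rule did not use, gave a check of the label. It stood at 203 in control 1, 72.8 and 102 in the AKI pair, and 91.2 and 107 in the CKD pair, against 20.1, 3.21, 1.77, 2.22 and 0.587 in T lymphocytes of the same libraries (barcodes with Ptprc and at least 2 UMIs of Cd3d, Cd3e and Cd3g), which should lack it and show the level of free RNA. At equal depth, with each cell thinned to 1500 UMIs, S100g was found in 83.4% of CNT cells in control 1, 68.8% and 65.0% in the AKI pair, and 75.5% and 72.4% in the CKD pair. The T lymphocytes gave 73.1%, 23.8%, 16.8%, 23.2% and 4.41% at that depth. In unthinned cells, with T lymphocytes at a median of 3615 to 5952.5 UMIs, the shares ran from 75.9% to 99.8% in CNT cells and from 16.6% to 94.3% in T lymphocytes. The share of cells with a UMI in the control was thus close to background, and the levels rather than the shares separated the cell types there.

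The rule gathered more than 1 kind of cell, which is described before the comparisons. A list of 13 intercalated cell genes (among them the transcription factor Foxi1, the anion exchanger pendrin Slc26a4 and proton pump subunits such as Atp6v1g3) reached 20 UMIs per 10000 in 322 of the 962 cells, or 33.5%. They were 34.3% of control 1, 38.1% and 28.2% of the AKI pair, and 30.0% and 37.9% of the CKD pair. These cells were deeper, with medians of 21116 to 30472 UMIs per library against 8597.5 to 18092 in the rest. Separately, S100g lay under 10 UMIs per 10000 in 268 cells, or 27.9%. Both limits are cuts through a range and no cell types: 12 cells lay between 15 and 25 on the intercalated list and 78 between 5 and 20 for S100g. Whether the cells with intercalated genes were doublets was not tested, and no doublets were removed.

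**Figure D1:**
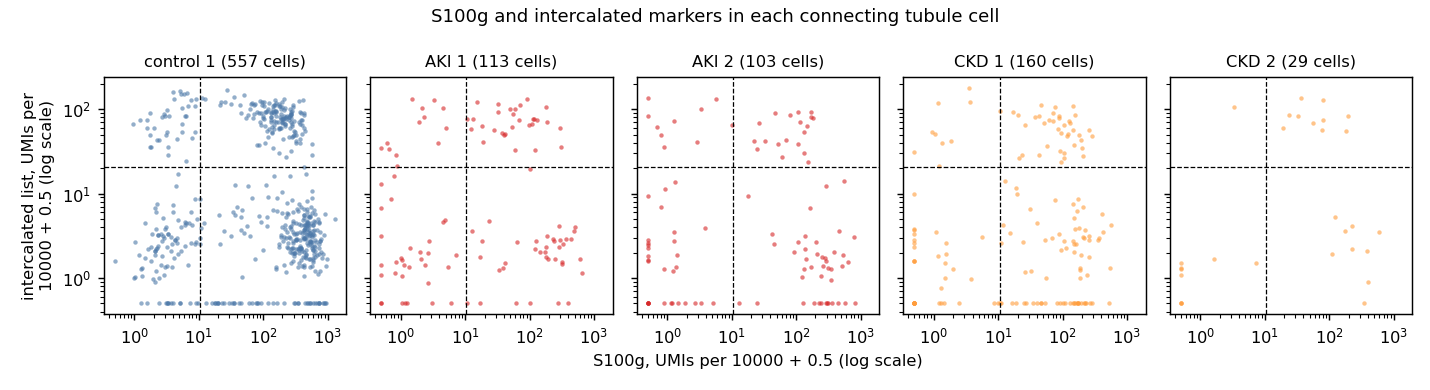
Each point is 1 CNT cell, with S100g (horizontal) and the sum of the 13 intercalated cell genes (vertical) in UMIs per 10000 plus 0.5 on log axes, 1 panel per library. The dashed lines at 10 and 20 divide the cells into 4 subsets, and all 4 are present in every library.

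The 4 subsets made by the cuts differed in their other genes. S100g-high, intercalated-low cells numbered 277 in control 1, 38 and 43 in the AKI pair, and 77 and 9 in the CKD pair, and held the largest share of cells in the control, AKI and CKD 1 (33.6% to 49.7%). In them Slc8a1 stood at 28.4, 15.3, 17.3, 20.5 and 25.7, Calb1 at 46.4, 35.8, 42.8, 33.3 and 50.8, and Klk1 at 205, 78.9, 87.6, 169 and 50.6. This subset thus held Slc8a1 and Calb1 at more than the population level in every library. S100g-high, intercalated-high cells numbered 152, 30, 19, 39 and 10, with Foxi1 at 2.14 to 4.04 and Slc26a4 at 2.83 to 8.53, against a Foxi1 level of at most 0.165 in the first subset. Cells low in both numbered 89, 32, 31, 35 and 9. They held Slc8a1 at 2.27 to 4.28 only, and the water channel Aqp2 of principal cells at 27.1 in control 1, 69.5 and 69.2 in the AKI pair, and 67.9 and 70.4 in the CKD pair. Aqp2 in the first subset was 14.7, 15.7, 19.4, 17.9 and 14.3. The doubly low cells therefore carried a principal cell gene above its level in S100g-high, intercalated-low cells, and their transcripts go against the label. The remaining 39, 13, 10, 9 and 1 cells were S100g-low and intercalated-high.

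The make-up differed between libraries. The doubly low cells were 15.98% of control 1 (95% exact binomial interval 13.03% to 19.3%), 28.3% of AKI 1 (20.2% to 37.6%), 30.1% of AKI 2 (21.5% to 39.9%), 21.9% of CKD 1 (15.7% to 29.1%) and 31.0% of CKD 2 (15.3% to 50.8%). The intervals cover counting error only. Both AKI intervals lay above that of the control, and those of CKD overlapped it. Because this make-up moves with the groups, many of the results below are also given for S100g-high, intercalated-low cells alone, a restriction chosen after seeing the data, in which the level of S100g is itself partly set by the cut.

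Markers of other cell types also moved with the groups. The 7 genes of the thick ascending limb, another tubule segment, summed to 10.3, 4.80, 4.35, 7.01 and 4.01 in CNT cells. In T lymphocytes they summed to 14.4, 4.71, 1.95, 6.59 and 1.25. Over CNT cells the 7 endothelial genes summed to 3.14 in control 1 and to 0.0573 to 0.671 in the treated libraries, and the 8 fibroblast and pericyte genes to 3.24 and to 0.171 to 0.556. Podocyte genes summed to 0.564 and to 0.0135 to 0.0731, with Nphs1 and Wt1 at 0 in every treated library. T and NK lymphocyte genes summed to 0.380 in control 1, 2.25 and 0.943 in the AKI pair, and 2.47 and 0.759 in the CKD pair, against 62.0 to 98.8 in T lymphocytes. Macrophage genes ran from 0.301 to 1.80, against 3.96 to 20.3 in T lymphocytes, and proximal tubule genes from 0.473 to 3.08, against 1.59 to 7.18. Over the S100g-high, intercalated-low cells the fibroblast and pericyte genes summed to 3.41, 0.0165, 0.0330, 0.593 and 0. T and NK genes summed there to 0.694, 1.10, 1.09, 5.20 and 0.747, and macrophage genes to 0.857, 0.757, 1.62, 4.32 and 0.107. Proximal tubule genes summed to 3.19, 5.53, 4.68, 2.79 and 0.587. The restriction thus did not lower these sums in every library. The part of other cell types in the results below was not tested beyond the restricted values given.

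CNT cells formed 6.08% of kept barcodes in control 1 (95% exact binomial interval 5.60% to 6.58%), 1.01% in AKI 1 (0.832% to 1.21%), 0.949% in AKI 2 (0.775% to 1.15%), 0.828% in CKD 1 (0.705% to 0.967%) and 0.305% in CKD 2 (0.204% to 0.438%). The control share was 7.86 times the mean of the 4 treated libraries, and no interval of a treated library reached it. Of barcodes without a Ptprc UMI, that is without most leukocytes, they were 8.87%, 3.65%, 3.81%, 1.79% and 1.97%, and the ratio was 3.16. Both AKI libraries lay above both CKD libraries with each denominator, although the intervals of AKI and CKD 1 overlapped over all kept barcodes. Counted as S100g-high, intercalated-low cells, that order did not hold, with 0.339% and 0.396% in the AKI pair and 0.399% in CKD 1. With every barcode thinned to 1500 UMIs the shares were 3.09%, 0.354%, 0.239%, 0.272% and 0.125%, with the control again highest and CKD 1 above AKI 2. No permutation of the labels of 1 control library against 4 treated libraries can pass the threshold, so no test of the share was made. Fewer CNT cells in the kidney and fewer recovered from it cannot be told apart, nor can fewer cells and less RNA per cell.

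**Figure D2:**
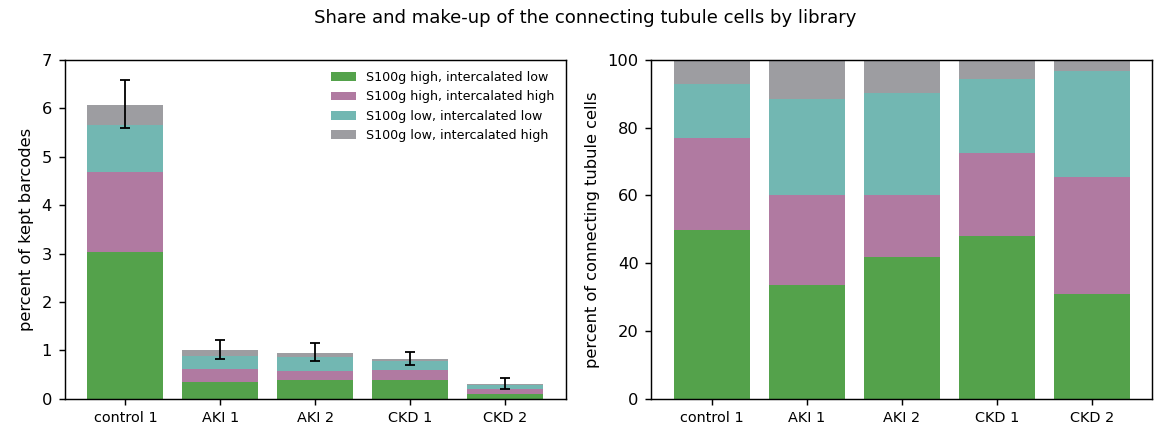
Left, CNT cells as percent of kept barcodes in each of the 5 libraries with 95% exact binomial bars, stacked by subset on an axis from 0. Right, the percent make-up of the CNT cells by the 4 subsets cut from S100g and the intercalated list; control 1 stands at 6.08% and CKD 2 at 0.305% on the left.

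Differences between groups were tested on UMIs summed over the CNT cells of each library with edgeR's quasi-likelihood test over 11265 genes with Benjamini-Hochberg adjustment, and a gene is said to have risen or fallen only with an adjusted p under 0.05. The control library is assumed in the fit to vary like the AKI and CKD libraries. In AKI against control 1059 genes were called, 9.4% of those tested, with 574 higher (5.1%) and 485 lower (4.31%). In CKD against control 350 were called (3.11%), with 208 higher (1.85%) and 142 lower (1.26%). In CKD against AKI 16 were called (0.142%), with 7 higher (0.0621%) and 9 lower (0.0799%), and 917 had an unadjusted p under 0.05 (8.14%). The comparisons with the control share that library. In S100g-high, intercalated-low cells, over 8024 genes, 75 were called for AKI (0.935%), 38 for CKD (0.474%) and 4 for CKD against AKI (0.0499%).

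Of 16 tested genes of calcium and magnesium handling, 8 fell and 1 rose in AKI against control, with a median log2 fold change of -0.98 against -0.00 over all genes. Among S100g-high, intercalated-low cells 1 of 15 tested members was called, Egf, with a median of -0.68. In CKD against control 2 fell (Egf and S100g) and none rose, with a median of -0.39. S100g, whose levels are given above, was lower in all 4 treated libraries than in the control, and the groups did not overlap. Its log2 fold change was -1.25 ± 0.19 (SE, adjusted p = 0.00152) in AKI and -0.99 ± 0.19 (adjusted p = 0.0165) in CKD. In S100g-high, intercalated-low cells S100g stood at 407, 217, 279, 168 and 271, and the change was not called there (-0.79, adjusted p = 0.411 in AKI, and -0.95, adjusted p = 0.306 in CKD).

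Klk1, tissue kallikrein, stood at 98.9 in control 1, 27.6 and 41.6 in the AKI pair, and 83.0 and 48.5 in the CKD pair, against 16.6, 1.87, 0.757, 3.35 and 0.291 in T lymphocytes. Both AKI libraries lay below every other library. Klk1 fell in AKI (-1.55 ± 0.28, adjusted p = 0.00414) and was not called in CKD (-0.54 ± 0.28, adjusted p = 0.433), nor between CKD and AKI (1.01 ± 0.24, adjusted p = 0.179). The coreceptor klotho, Kl, stood at 11.1, 4.80, 6.00, 8.12 and 6.76. Kl showed the same order of groups, a fall in AKI (-1.07 ± 0.17, adjusted p = 0.00253) and no call in CKD (-0.52 ± 0.18, adjusted p = 0.175). The vitamin D receptor Vdr stood at 1.77 in control 1 and 0.966 to 1.10 in the treated libraries, and fell in AKI (-0.82 ± 0.16, adjusted p = 0.00721), with an adjusted p of 0.0535 in CKD. In S100g-high, intercalated-low cells the AKI differences were -1.37 for Klk1 (adjusted p = 0.222), -0.82 for Kl (adjusted p = 0.338) and -0.68 for Vdr (adjusted p = 0.558), and none of them was called.

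Other members of the list moved otherwise. Trpv6, the second apical calcium channel, was sparse, at 0.0651 in control 1, 0.364 and 0.370 in the AKI pair, and 0.132 and 0.272 in the CKD pair. It rose in AKI (2.46 ± 0.29, adjusted p = 0.000333), and 1.46 ± 0.36 in CKD was not called (adjusted p = 0.0509). Its differences in the restricted cells were 1.84 (adjusted p = 1) and -0.01, and neither was called. The basolateral calcium pump Atp2b1 stood at 0.9505, 0.894, 0.934, 1.02 and 0.759, with differences of -0.09 ± 0.18 in AKI (adjusted p = 0.847) and 0.00 in CKD. Fxyd2, a subunit of the sodium pump, stood at 24.2, 13.5, 8.51, 22.7 and 17.7 and fell in AKI (-1.16 ± 0.24, adjusted p = 0.0111), whereas in S100g-high, intercalated-low cells its difference was -0.10. Tmem72 (-0.89) and the calcium-sensing receptor Casr (-1.21) also fell in AKI. Egf, which the DCT makes, had one of the largest fitted falls (-6.43 ± 0.34, adjusted p = 2.96e-06), but its control level of 3.31 in CNT cells lay under the 7.24 of T lymphocytes, and the part of free RNA in its fall was not tested.

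The sodium and aldosterone genes gave few calls. Of 19 tested genes of aldosterone and WNK signalling, 4 fell in AKI and none rose (median -0.10), and 1 fell in CKD (median -0.30). The ENaC subunit Scnn1a stood at 3.69, 2.90, 2.25, 2.88 and 2.12, Scnn1b at 3.70, 4.25, 4.58, 4.69 and 4.64, and Scnn1g at 2.39, 1.98, 2.15, 2.67 and 2.12. None of these was called in AKI, with differences of -0.54 ± 0.20 for Scnn1a, 0.22 ± 0.15 for Scnn1b and -0.24 ± 0.17 for Scnn1g (adjusted p = 0.131, 0.449 and 0.461). Hsd11b2, the enzyme that keeps cortisol-like steroids off the aldosterone receptor, stood at 25.8, 27.9, 25.8, 23.6 and 21.8, a difference of 0.03 ± 0.16 in AKI (adjusted p = 0.945) and -0.14 in CKD (adjusted p = 0.781). The aldosterone receptor Nr3c2 (-0.56 ± 0.18, adjusted p = 0.086) and the potassium channel ROMK, Kcnj1 (-0.45 ± 0.16, adjusted p = 0.113), were not called in AKI either.

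The WNK kinase pathway, which sets salt transport in the distal nephron, held 3 of the 4 calls. Wnk1 stood at 7.60 in control 1, 2.04 and 1.97 in the AKI pair, and 3.73 and 3.27 in the CKD pair. The 3 groups did not overlap, with AKI lowest and CKD between AKI and the control. Wnk1 fell in AKI (-1.95 ± 0.15, adjusted p = 3.93e-05) and in CKD (-1.06 ± 0.16, adjusted p = 0.00351), and rose from AKI to CKD (0.89 ± 0.14, adjusted p = 0.0373). In T lymphocytes Wnk1 was 4.07, 3.10, 3.06, 2.63 and 2.84, a narrower range with CKD lowest. In S100g-high, intercalated-low cells the AKI difference was -1.88 (adjusted p = 0.00121), and the CKD difference was -1.08 (adjusted p = 0.123). Klhl3, which targets WNK kinases for degradation, stood at 0.714, 0.293, 0.248, 0.439 and 0.301 and fell in AKI (-1.42 ± 0.21, adjusted p = 0.0015). Wnk4 (-0.59 ± 0.17, adjusted p = 0.0487) also fell, as did, outside that pathway, the glucocorticoid receptor Nr3c1 (-0.87 ± 0.22, adjusted p = 0.0291). Klhl3 (-0.87, adjusted p = 0.309), Wnk4 (-0.32) and Nr3c1 (-0.44) were not called in the restricted cells.

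Of the water transport genes, Aqp2 and Aqp4 rose in the population. Aqp2, the vasopressin-regulated channel, stood at 13.5 in control 1, 32.3 and 31.6 in the AKI pair, and 28.3 and 21.3 in the CKD pair. It rose in AKI (1.21 ± 0.20, adjusted p = 0.00254) and in CKD (0.92 ± 0.19, adjusted p = 0.0253), against differences of 0.18 and 0.08 in the restricted cells. The basolateral channel Aqp4 stood at 0.322, 2.03, 1.69, 1.18 and 1.42 and rose in AKI (2.50 ± 0.20, adjusted p = 4.58e-05) and in CKD (2.03 ± 0.21, adjusted p = 0.000863), with differences of 1.92 and 2.49 in the restricted cells that were not called (adjusted p = 0.539 and 0.395). Fxyd4, an ion transport regulator of principal cells, rose in AKI (0.99 ± 0.18, adjusted p = 0.00478), against 0.09 in the restricted cells. The 7 principal cell genes summed to 36.2, 66.6, 63.5, 52.4 and 49.2 over all CNT cells and to 34.7, 35.5, 39.2, 36.1 and 32.03 over the restricted cells. The part of the make-up of the population in the rise of Aqp2 and Fxyd4 was not tested.

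Of 32 injury and repair genes tested, 21 rose and 1 (Vim, a filament of mesenchymal cells) fell in AKI, with a median of 1.48, and 14 rose in CKD, with a median of 1.07. In S100g-high, intercalated-low cells 6 of 26 rose in AKI (median 1.41) and 5 of 26 in CKD (median 1.38), none falling. Lcn2, an iron-binding protein shed by injured distal tubule, stood at 0.235 in control 1, 12.8 and 18.5 in the AKI pair, and 5.80 and 6.46 in the CKD pair, against 0.064, 1.84, 0.827, 0.764 and 0.235 in T lymphocytes. The 3 groups did not overlap. Lcn2 rose in AKI (6.02 ± 0.28, adjusted p = 1.24e-06) and in CKD (4.74 ± 0.27, adjusted p = 9.79e-06), and was lower in CKD than in AKI (-1.28 ± 0.17, adjusted p = 0.0373).

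Within the subsets Lcn2 was uneven. In the doubly low cells it stood at 1.01, 26.5, 53.1, 16.9 and 23.9, in the S100g-high, intercalated-low cells at 0.0363, 7.98, 3.41, 3.61 and 1.60, and in the S100g-high, intercalated-high cells at 0.0418, 2.42, 2.51, 1.09 and 1.01. The treated libraries were above the control in each of these subsets, and in every library Lcn2 was highest in the doubly low cells. In the restricted cells alone the differences were 7.19 in AKI (adjusted p = 2.86e-05) and 6.14 in CKD (adjusted p = 0.000278).

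Spp1, the secreted phosphoprotein osteopontin, stood at 24.9 in control 1, 100.2 and 104 in the AKI pair, and 109 and 115 in the CKD pair, against 5.18, 24.6, 22.3, 21.8 and 4.91 in T lymphocytes. The treated libraries lay close together and all above the control. Spp1 rose in AKI (2.01 ± 0.17, adjusted p = 4.99e-05) and in CKD (2.21 ± 0.17, adjusted p = 0.000104) and was not called between them (0.20, adjusted p = 0.72), and the restricted cells also gave calls (1.73, adjusted p = 0.00764, and 1.46, adjusted p = 0.0382). Clu, the secreted chaperone clusterin, stood at 10.2, 65.8, 93.1, 65.7 and 43.7. Clu rose in AKI (2.93 ± 0.28, adjusted p = 0.000129) and in CKD (2.47 ± 0.28, adjusted p = 0.00112), and in the restricted cells by 2.53 and 1.66 (adjusted p = 0.00111 and 0.0434).

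The keratins of simple epithelia followed. Krt8 stood at 3.06, 14.8, 11.3, 7.34 and 6.85 and Krt18 at 3.00, 12.6, 11.5, 7.49 and 8.01, with the AKI libraries highest, the CKD libraries between and the control lowest. Krt8 rose in AKI (2.07 ± 0.21, adjusted p = 0.000145) and in CKD (1.26 ± 0.20, adjusted p = 0.00584), and Krt18 likewise (1.98 ± 0.17, adjusted p = 6.49e-05, and 1.41 ± 0.17, adjusted p = 0.00147). In the restricted cells the AKI differences of 1.78 and 1.74 were not called (adjusted p = 0.0841 and 0.128). Krt19, sparse at 0.098, 1.02, 0.713, 0.458 and 0.186, rose in AKI (3.12 ± 0.35, adjusted p = 0.000241), and in the restricted cells by 3.63 (adjusted p = 0.000516). Lgals3, a galectin, stood at 4.20, 16.1, 15.1, 14.6 and 11.4 and rose in AKI (1.86 ± 0.20, adjusted p = 0.000189) and CKD (1.68 ± 0.20, adjusted p = 0.00135). Havcr1 (KIM-1), the injury marker of the proximal tubule, had 1, 15, 2, 2 and 2 UMIs in all CNT cells of the 5 libraries and was not called.

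**Figure D3:**
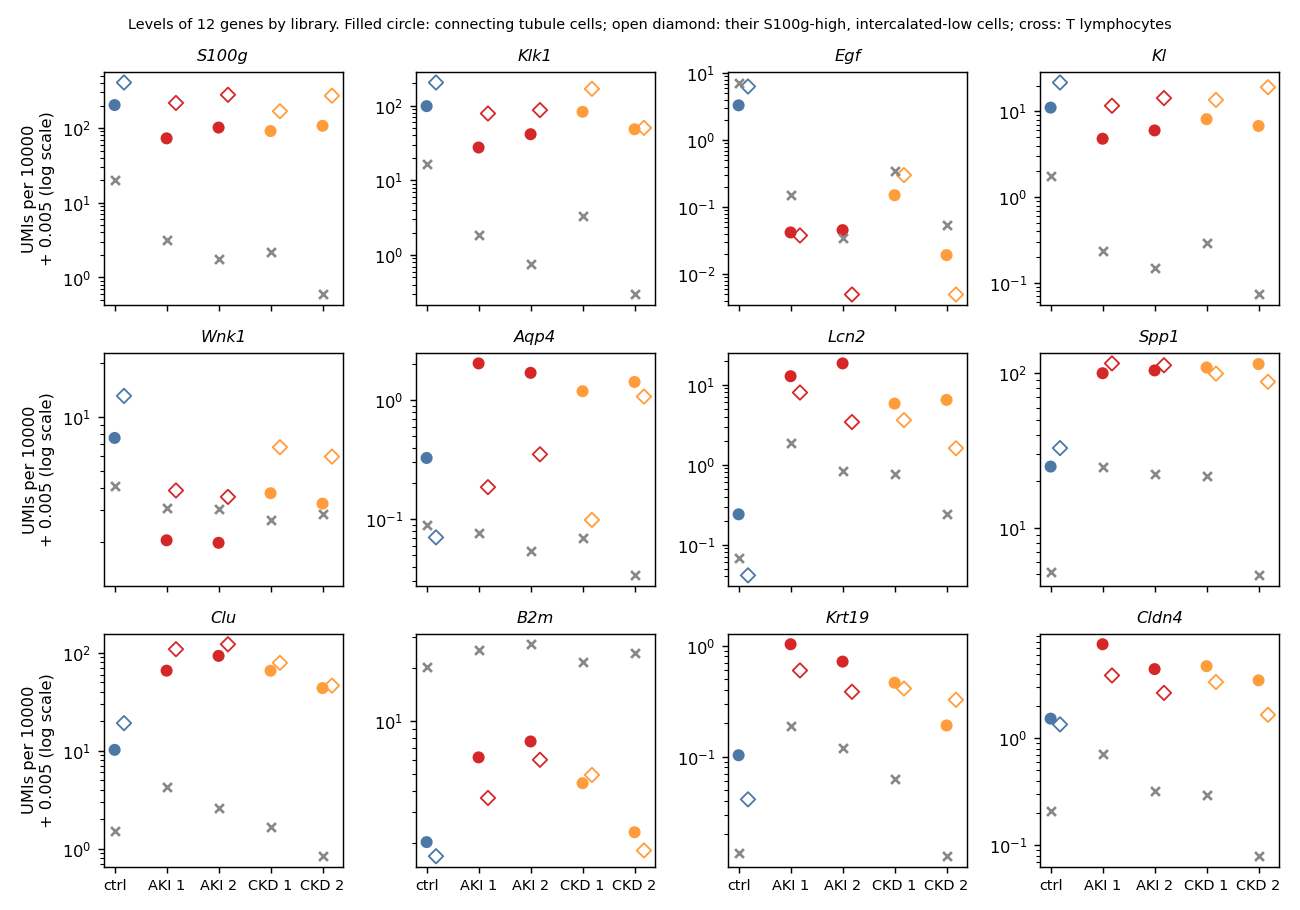
Levels of 12 genes by library in UMIs per 10000 plus 0.005 on log axes. Filled circles are CNT cells, open diamonds the S100g-high, intercalated-low cells and crosses T lymphocytes of the same library; Lcn2 rises from 0.235 in control 1 to 12.8 and 18.5 in AKI, while Egf lies at or under the T lymphocyte level in the control.

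The p53 response, which DNA damage sets off, was tested because AAI forms DNA adducts. Of 23 tested genes 7 rose in AKI and 6 in CKD, none falling, with medians of 0.46 and 0.54. Cdkn1a, the cell cycle inhibitor p21, stood at 0.393 in control 1, 1.21 and 1.25 in the AKI pair, and 1.01 and 1.03 in the CKD pair. It rose in AKI (1.61 ± 0.17, adjusted p = 0.000193) and in CKD (1.42 ± 0.18, adjusted p = 0.00153). Gdf15, a stress-induced secreted factor, stood at 3.18, 10.4, 10.3, 5.50 and 6.20 and rose in AKI (1.68 ± 0.17, adjusted p = 0.000139) and in CKD (0.92, adjusted p = 0.0113), with 2.02 (adjusted p = 0.31) and 1.12 (adjusted p = 0.917) in the restricted cells. The death-promoting BH3 genes Pmaip1 and Bbc3 rose in AKI (2.48 ± 0.25, adjusted p = 0.000137, and 1.62 ± 0.29, adjusted p = 0.00417) and in CKD (1.88 and 1.45). In the restricted cells Pmaip1 was the single member called in AKI (2.26, adjusted p = 0.0313), and Cdkn1a was not (1.20, adjusted p = 0.293).

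MHC class I and immunoproteasome genes, which load peptides for CD8 T cells, rose together in AKI. Of 16 tested, 14 rose and none fell in AKI (median 1.49), and 9 rose and none fell in CKD (median 0.95). The promoters of 3 of them are shown with matches to a searched interferon motif and a searched NF-kB-like motif. B2m matched both, and H2-D1 and H2-K1 matched the NF-kB-like one. The stretches shown are RefSeq sequences of GRCm38.p6, 100 bases each, 5′ to 3′ on the gene's strand, with motif matches in capitals. B2m lies at chr2:122147527-122147626 on the plus strand, 160 to 61 bases before the start of the gene, H2-D1 at chr17:35262904-35263003 on the plus strand, 190 to 91 bases before it, and H2-K1 at chr17:34000398-34000497 on the minus strand, 150 to 51 bases before it.
B2m: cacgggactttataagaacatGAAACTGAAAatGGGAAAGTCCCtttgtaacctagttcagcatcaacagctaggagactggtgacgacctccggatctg
H2-D1: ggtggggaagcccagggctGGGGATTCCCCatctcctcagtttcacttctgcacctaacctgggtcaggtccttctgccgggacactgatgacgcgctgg
H2-K1: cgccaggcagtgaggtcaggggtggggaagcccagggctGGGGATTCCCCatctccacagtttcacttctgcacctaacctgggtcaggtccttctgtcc
The motifs searched, on both strands of 300 bases around each start, were GAAA followed by any 2 bases and again GAAA, the core of the interferon-stimulated response element, and GGGA followed by any 4 bases and CC, an NF-kB-like motif. Matches of the latter on both strands overlap in the capitals. The interferon motif was found in 3.44% of 32851 promoters and in 4 of the 14 list genes with a promoter (B2m, Erap1, H2-T23 and Psme1). The NF-kB-like motif was found in 20.7% of all promoters and in 5 of the 14 (B2m, H2-D1, H2-K1, H2-Q4 and H2-Q7). A match is a description of the letters only. An element that departs from the searched letters is not marked, so a missing match does not show that a promoter lacks an interferon element.

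B2m, the light chain of MHC class I, stood at 2.03 in control 1, 6.18 and 7.61 in the AKI pair, and 4.40 and 2.31 in the CKD pair. B2m rose in AKI (1.73 ± 0.29, adjusted p = 0.00299), and was not called in CKD (0.82 ± 0.28, adjusted p = 0.188), where CKD 2 lay near the control. The heavy chain H2-K1 stood at 2.87, 10.8, 12.1, 6.67 and 4.58 and H2-D1 at 2.50, 8.05, 9.48, 5.23 and 4.05. For both the AKI libraries were highest and the control lowest. H2-K1 rose in AKI (1.96 ± 0.22, adjusted p = 0.000246) and in CKD (1.03 ± 0.21, adjusted p = 0.0243), as did H2-D1 (1.78 ± 0.20, adjusted p = 0.000222, and 0.95 ± 0.19, adjusted p = 0.0218), although reads of these near-identical genes may have been shared between them. The immunoproteasome subunit Psmb8 stood at 0.235, 1.08, 1.37, 0.853 and 0.544 and rose in AKI (2.35 ± 0.24, adjusted p = 0.000166) and in CKD (1.70 ± 0.25, adjusted p = 0.00394).

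These genes are high in leukocytes, and T lymphocytes of the same libraries held B2m at 20.4 to 27.3, H2-K1 at 14.3 to 19.5 and Psmb8 at 3.71 to 6.64. The T lymphocyte levels of B2m were 20.4 in control 1, 25.4 and 27.3 in the AKI pair, and 21.7 and 24.3 in the CKD pair. These levels do not measure how much free leukocyte RNA a library held. T lymphocytes numbered 1161 in control 1, 6176 and 5967 in the AKI pair, and 6565 and 6362 in the CKD pair. The part of leukocyte RNA in the CNT rise was not tested. Of 15 members tested in the restricted cells, 2 rose in AKI (H2-Q4 and Psmb8, chosen for naming after their values were seen) with a median of 1.06, and 3 rose in CKD with a median of 0.94. There the AKI differences of B2m (1.43, adjusted p = 0.186), H2-K1 (1.72, adjusted p = 0.0684) and H2-D1 (1.42, adjusted p = 0.113) kept their sign and were not called.

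Interferon response genes gave 13 rises among 28 tested in AKI and 4 in CKD, none falling, with medians of 1.12 and 1.07. Among the restricted cells none of 20 was called in AKI (median 1.07), and 1 of 20 was in CKD. The interferon-induced GTPase Iigp1 stood at 0.125 in control 1, 0.493 and 1.15 in the AKI pair, and 0.414 and 0.172 in the CKD pair. It rose in AKI (2.66 ± 0.44, adjusted p = 0.00266). It was not called in CKD (adjusted p = 0.161), where CKD 2 lay nearest to the control. MHC class II genes, which present peptides to CD4 T cells, gave 4 rises of 7 in AKI, with Cd74 at 0.621, 1.49, 2.05, 1.66 and 0.487 (1.48 ± 0.40, adjusted p = 0.0371). In the restricted cells the Cd74 difference was 0.28.

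Secreted signals moved both ways in AKI, with 11 of 31 tested genes rising and 9 falling. Cxcl16, a chemokine for T cells, stood at 0.262, 1.18, 1.17, 0.834 and 0.516 and rose in AKI (2.13 ± 0.23, adjusted p = 0.000207) and in CKD (log2 difference of 1.5, adjusted p = 0.00671). Il34, a ligand of the macrophage receptor CSF1R, stood at 0.0235 in control 1, 0.200 and 0.194 in the AKI pair, and 0.102 and 0.172 in the CKD pair and rose in both (3.02 ± 0.38, adjusted p = 0.000513, and 2.43 ± 0.44, adjusted p = 0.0128). The other CSF1R ligand, Csf1, stood at 0.110, 0.404, 0.316, 0.102 and 0.1003. It rose in AKI (1.69 ± 0.24, adjusted p = 0.00104), was at the control level in CKD (-0.06 ± 0.32), and was lower in CKD than in AKI (-1.75 ± 0.28, adjusted p = 0.0373). Il34 thus stood above the control in CKD and Csf1 did not, and the difference between the genes was not tested. Il34 and Csf1 had too few UMIs for a test in the restricted cells. The stromal chemokine Cxcl12 fell (-5.39 ± 0.55, adjusted p = 0.000154) together with the endothelial and fibroblast genes.

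Tight junction and stress genes had smaller groups of calls. Of 12 claudins tested, 3 rose in AKI and 2 in CKD, and in the restricted cells 1 of 11 and 0 of 11. Cldn4, which forms the chloride path of the distal nephron, stood at 1.52, 7.58, 4.44, 4.72 and 3.48 and rose in AKI (1.96 ± 0.30, adjusted p = 0.00192) and in CKD (1.49, adjusted p = 0.0212). Cldn3 stood at 0.470, 1.97, 2.24, 1.54 and 0.874 and rose in both as well (2.13 ± 0.25, adjusted p = 0.000325, and 1.48, adjusted p = 0.01), and in the restricted cells in AKI (1.69, adjusted p = 0.0121). Immediate-early and dissociation genes gave 8 rises of 26 in AKI and 3 in CKD, led by Klf4 (1.58 ± 0.17, adjusted p = 0.000201) and Socs3 (1.17 ± 0.17, adjusted p = 0.00132), and both were also called in the restricted cells in AKI. Of 75 nuclear genes of the respiratory chain 6 fell in AKI and none rose (median -0.34), with Ndufs1 at 1.42, 0.853, 0.763, 1.06 and 1.19 (-0.84 ± 0.16, adjusted p = 0.00746).

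Transcription factors of the distal tubule mostly were not called: of 25 tested, Elf3 and Elf5 rose and Lhx1 and Tfap2b fell in AKI. Lhx1, needed for nephron formation, stood at 0.658 in control 1, 0.293 in both AKI libraries, 0.327 in CKD 1 and 0.329 in CKD 2. It fell in AKI (-1.19 ± 0.18, adjusted p = 0.00171) and in CKD (-0.96 ± 0.20, adjusted p = 0.0243). Tfap2b, a factor that shapes the distal convoluted and connecting tubule, stood at 1.73, 0.953, 1.16, 0.980 and 1.20 and fell in AKI (-0.74 ± 0.17, adjusted p = 0.0178). None of the 23 factors tested in the restricted cells was called in AKI or in CKD.

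**Figure D4:**
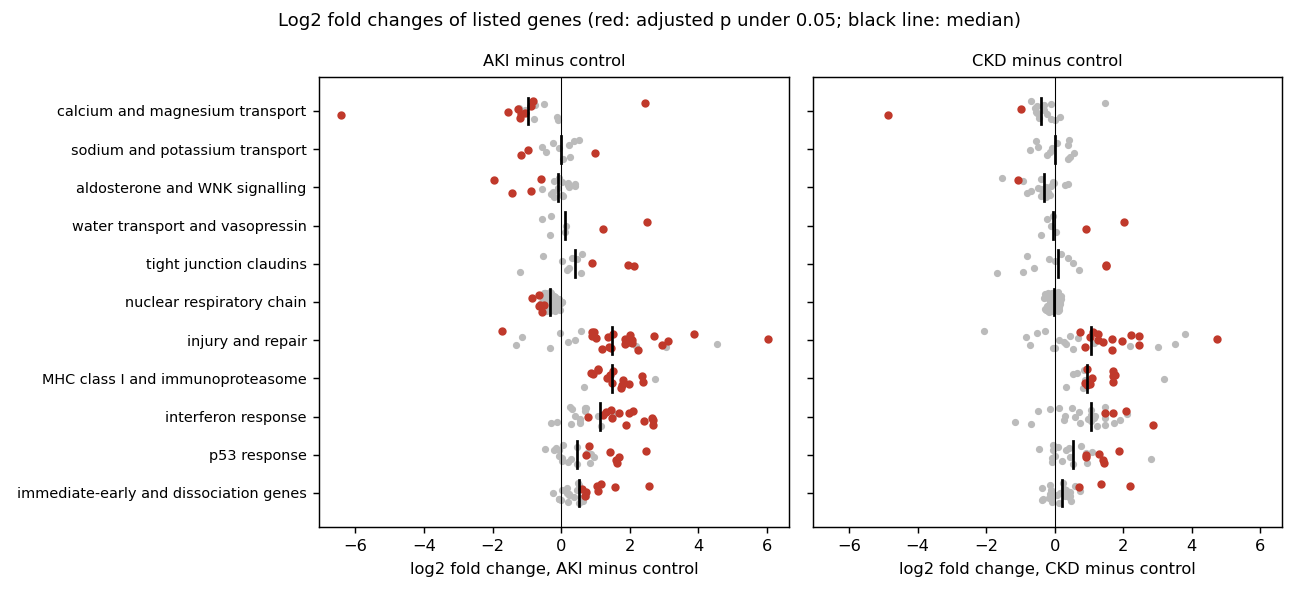
Log2 fold changes of the members of 11 gene lists in CNT cells, AKI minus control and CKD minus control, with 1 point per gene. Red points have an adjusted p under 0.05 and black lines are list medians, which lie at 1.48 and 1.07 for injury and repair genes and at -0.98 and -0.39 for calcium and magnesium transport.

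Several of the genes with the largest fitted changes were found in few cells. Sprr2f, a cornified envelope gene, had 0 UMIs in control 1, 462 and 288 in the AKI pair, and 106 and 2 in the CKD pair, found in 0, 17, 21, 11 and 2 cells. Against a floor of 3 UMIs over the control it was at least 477-fold higher in AKI, and 106 of its 108 UMIs in CKD came from CKD 1. The mucin Muc4 was at least 54.7-fold higher in AKI and at least 18.2-fold higher in CKD by the same floor, and the chemokine Ccl8 at least 33.7-fold higher in AKI. Ccl8 was spread thinly, with 22 UMIs in 20 cells of AKI 1 and 31 UMIs in 24 cells of AKI 2. The part of free RNA in the Ccl8 difference was not tested. Among the genes that fell to 0 UMIs in AKI were the fibroblast genes Pi16 (at least 27.6-fold lower), Col1a1 (at least 26.7-fold lower) and Sfrp2 (at least 24.5-fold lower). In control 1 they came from 19, 8 and 11 cells, of which 15, 7 and 10 held at least 3 UMIs of the endothelial or of the fibroblast list. Col1a1 is itself in the fibroblast list, so its own UMIs partly set its count. In CKD the endothelial gene Cldn5 was at least 37.8-fold lower. Of the lists, 6 of 7 endothelial genes fell in AKI and in CKD, and 7 of 8 fibroblast genes in AKI and 6 in CKD.

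CKD and AKI differed in 16 genes, and all are given. Those higher in CKD were Hist1h2ap, Cenpf, Acp5, S100a4, Slc16a7, Wnk1 and Pgam2, and those lower were Arg2, Csf1, Ccn2, Pigr, Muc20, Lcn2, Nfkbiz, Hist1h1c and Klf4. Without the control library in the fit, 1 call (Cenpf) was left, so the others depend on that library being in the fit. The set of genes tested changed with it as well, and the cause of the loss was not tested. Slc16a7, a monocarboxylate transporter, stood at 3.15 in control 1, 1.29 and 1.09 in the AKI pair, and 2.59 and 2.06 in the CKD pair, and Pgam2, a glycolytic mutase, at 3.96, 1.60, 1.72, 2.87 and 2.84. Like Wnk1, both lay lowest in AKI and between AKI and control in CKD. The differences were 1.06 ± 0.16 for Slc16a7 and 0.86 ± 0.13 for Pgam2 (adjusted p = 0.0373 for each).

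Of the genes lower in CKD than in AKI, Lcn2, Csf1, Pigr, Muc20, Nfkbiz and Klf4 had risen in AKI against the control. Pigr, which carries immunoglobulin A across epithelia, stood at 0.047 in control 1, 1.22 and 1.17 in the AKI pair, and 0.307 and 0.544 in the CKD pair, with a CKD minus AKI difference of -1.56 ± 0.22. Muc20, a membrane mucin, stood at 0.218, 1.31, 1.10, 0.419 and 0.559 (-1.29 ± 0.19). Nfkbiz, an NF-kB cofactor, stood at 1.04, 3.41, 3.32, 1.31 and 1.82 (-1.07 ± 0.16), and Klf4, a zinc finger factor, at 1.81, 5.82, 5.19, 2.80 and 2.94 (-0.87 ± 0.14). For these 4 genes CKD lay between AKI and the control. Ccn2, a matricellular growth factor, stood at 0.498, 0.660, 0.632, 0.171 and 0.286 (-1.57 ± 0.24) and was lower in CKD than in the control too. Arg2, at 0.032, 0.200, 0.203, 0.0292 and 0.0286, differed by -2.70 ± 0.44 (adjusted p = 0.0402), and Hist1h1c, at 1.92, 4.94, 3.91, 2.02 and 2.22, by -0.999 ± 0.16. Apart from Arg2 each of these had an adjusted p of 0.0373. In the restricted cells the Hist1h1c difference was 0.07, so its direction did not hold there.

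The remaining genes higher in CKD had levels in T lymphocytes above those in CNT cells. Acp5, tartrate-resistant acid phosphatase, stood at 0.346 in CKD 1 and 0.143 in CKD 2 against 0.026 and 0.009 in AKI, in 48 and 9 cells against 3 and 2, while T lymphocytes held 3.80 and 2.78 in CKD and 0.687 and 0.846 in AKI. S100a4 stood at 0.697 and 0.115 against 0.037 and 0.045, and T lymphocytes held 9.66 and 8.20 against 4.18 and 4.05. Both genes were thus higher in CKD in T lymphocytes as well. The study reports Acp5 chiefly in macrophages, and there mostly in CKD. Macrophage genes summed in CNT cells to 0.723 and 1.43 in the AKI pair and to 1.80 and 0.301 in the CKD pair. The part of T lymphocyte or macrophage RNA in the CNT difference (3.93 ± 0.59 for Acp5 and 3.66 ± 0.58 for S100a4, adjusted p = 0.0373) was not tested. Cenpf, a kinetochore protein of dividing cells, stood at 0.370 and 0.344 against 0.033 and 0.014, in 10 and 3 cells against 2 and 1 (3.94 ± 0.39, adjusted p = 0.00517). In CKD 2, 22 of the 24 Cenpf UMIs lay in the 9 S100g-high, intercalated-low cells. All 32 UMIs of Top2a, another gene of dividing cells, came from 1 cell there. The Cenpf level of CKD 2 thus rests on few cells. Of 20 cell cycle genes tested Cenpf was the single call, and the list median was 2.79. Hist1h2ap, a histone with near-identical copies, came from 16 and 4 cells against 1 and 1 (5.64 ± 0.91, adjusted p = 0.0402).

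In the S100g-high, intercalated-low cells the 4 calls between CKD and AKI were S100a4 (5.80, adjusted p = 0.0109), Ifi27l2a (3.08, adjusted p = 0.0476), the urea transporter gene Slc14a2 (6.27) and AW112010 (3.68), all higher in CKD, and named after their values were seen. CKD 2 entered that comparison with 9 cells. In these restricted cells S100a4 had 1 and 1 UMIs in the AKI pair and 89 and 3 in the CKD pair, so most of its CKD UMIs came from CKD 1. The restricted cells of CKD 1 also held the highest sums of T and NK genes (5.20) and of macrophage genes (4.32). The part of leukocyte RNA in the S100a4 call was not tested. The injury, MHC class I and calcium lists had CKD minus AKI medians of -0.34, -0.37 and 0.50 over all CNT cells against -0.00 over all genes, with 1 call among them (Lcn2).

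The CNT was set beside its neighbours, the DCT (946 cells with at least 3 UMIs of Slc12a3, more than of Slc8a1 and Trpv5, and no Ptprc) and the principal cells (1072 cells with Aqp2 and Fxyd4). The test compared sums of the same libraries with the library as a block, and leaves out the genes that chose the cells. Against the DCT 1635 of 9693 genes were called, 16.9%, with 829 higher (8.55%) and 806 lower (8.32%) in CNT cells. Against principal cells 1693 of 10201 were called, 16.6%, with 778 higher (7.63%) and 915 lower (8.97%).

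Against the DCT the CNT was marked by sodium channel and water channel genes. Scnn1b stood at 3.70, 4.25, 4.58, 4.69 and 4.64 in CNT cells and at 0.614, 0.729, 1.30, 0.457 and 0.605 in DCT cells, a difference of 2.51 ± 0.19 (adjusted p = 3.5e-06) present in every library. Scnn1g differed by 3.37 ± 0.20 (adjusted p = 6.33e-07) and Scnn1a by 0.69 ± 0.12 (adjusted p = 0.00165), all higher in the CNT. Hsd11b2, at 25.8, 27.9, 25.8, 23.6 and 21.8 in the CNT and 3.74, 1.25, 3.14, 0.764 and 0.121 in the DCT, was higher by 3.92 ± 0.38 (adjusted p = 2.23e-05). Aqp2 (5.10 ± 0.78, adjusted p = 0.000569), Aqp3 (4.55 ± 0.59, adjusted p = 0.000164), the potassium channel subunit Kcne1 (4.78 ± 0.41, adjusted p = 7.23e-06) and the ammonia transporter Rhbg (3.90 ± 0.30, adjusted p = 3.56e-06) were among the largest differences. All 7 principal cell genes and all 13 intercalated cell genes tested were higher in the CNT, whereas in the restricted cells 1 of 3 intercalated genes tested was higher and 2 were lower, where 14.7% of 6628 genes were called, 7.38% higher and 7.33% lower.

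The DCT in turn was higher in magnesium handling and WNK genes. The calcium buffer Pvalb stood at 4.80, 0.381, 0.105, 2.05 and 0.302 in DCT cells and at 0.051 in control 1 and 0 in the treated libraries in CNT cells (-6.94 ± 0.34, adjusted p = 1.76e-07). The magnesium channel Trpm6 stood at 1.74, 0.916, 1.30, 1.00 and 0.907 in the DCT and 0.189, 0.089, 0.140, 0.122 and 0.201 in the CNT (-3.21 ± 0.16, adjusted p = 1.76e-07). Both genes were thus lower in the CNT in all 5 libraries. Wnk1 (-1.97 ± 0.14, adjusted p = 2.7e-06), Klhl3 (-2.24 ± 0.17) and the transcription factor Prox1 (-4.70 ± 0.34, adjusted p = 2.7e-06) were lower in the CNT too. S100g was higher in the CNT (1.93 ± 0.24, adjusted p = 0.000109), with DCT levels of 28.1, 22.4, 34.0, 12.8 and 44.3, and so was Kl (1.36 ± 0.27, adjusted p = 0.00351). Klk1 (0.83, adjusted p = 0.0556), Vdr (-0.17) and Atp2b1 (-0.28) were not called, but in the restricted CNT cells Klk1 (1.88, adjusted p = 0.00336) and Vdr (0.76, adjusted p = 0.00322) were called higher. Kcnj1 was lower in the CNT (-0.43 ± 0.11, adjusted p = 0.0172), but 0.18 and not called in the restricted cells (adjusted p = 0.443).

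Against principal cells the CNT differed by its calcium genes. Of 16 tested genes of calcium and magnesium handling 12 were higher in the CNT and 1 lower, with a median of 1.90. Klk1 stood at 98.9, 27.6, 41.6, 83.0 and 48.5 in CNT cells and at 3.86, 0.546, 0.345, 7.49 and 0.553 in principal cells (5.23 ± 0.45, adjusted p = 0.000141). S100g stood at 9.93, 8.64, 4.22, 12.4 and 1.69 in principal cells (4.11 ± 0.42, adjusted p = 0.000303), all under the lowest CNT library. Kl (3.38 ± 0.20, adjusted p = 2.18e-05), Vdr (2.62 ± 0.15, adjusted p = 2.18e-05), the calcium pump Atp2b4 (3.91 ± 0.33, adjusted p = 0.00012), the homeobox gene Emx1 (2.47 ± 0.17, adjusted p = 4.25e-05) and Wnk4 (1.59 ± 0.10, adjusted p = 3.04e-05) were higher in the CNT. The exception was Trpv6 (-1.40 ± 0.18, adjusted p = 0.000855), which was lower in the CNT.

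Most of the sodium genes were not called between the CNT and principal cells. Scnn1a (0.32), Scnn1b (0.41, adjusted p = 0.0733), Hsd11b2 (-0.11, adjusted p = 0.596), Nr3c2 (0.43) and Kcnj1 (0.08) were not called, and Scnn1g was higher by 0.49 ± 0.14 (adjusted p = 0.0354). In the restricted CNT cells Scnn1b (0.90, adjusted p = 0.000497) and Scnn1g (1.37, adjusted p = 3.54e-05) were both called higher. Aqp3 (-1.04 ± 0.11, adjusted p = 0.000327) and Aqp4 (-2.07 ± 0.28) were lower in the CNT, as was the factor Elf5 (-2.24 ± 0.21, adjusted p = 0.000201). Injury genes were lower in the CNT than in principal cells in 12 of 30 tested and higher in 1, Clu (median -0.62), with Lcn2 at -1.44 ± 0.27 (adjusted p = 0.00526). Of 16 MHC class I genes 10 were lower and none higher (median -0.60), and of 75 respiratory chain genes 21 were higher and 1 lower (median 0.21).

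**Figure D5:**
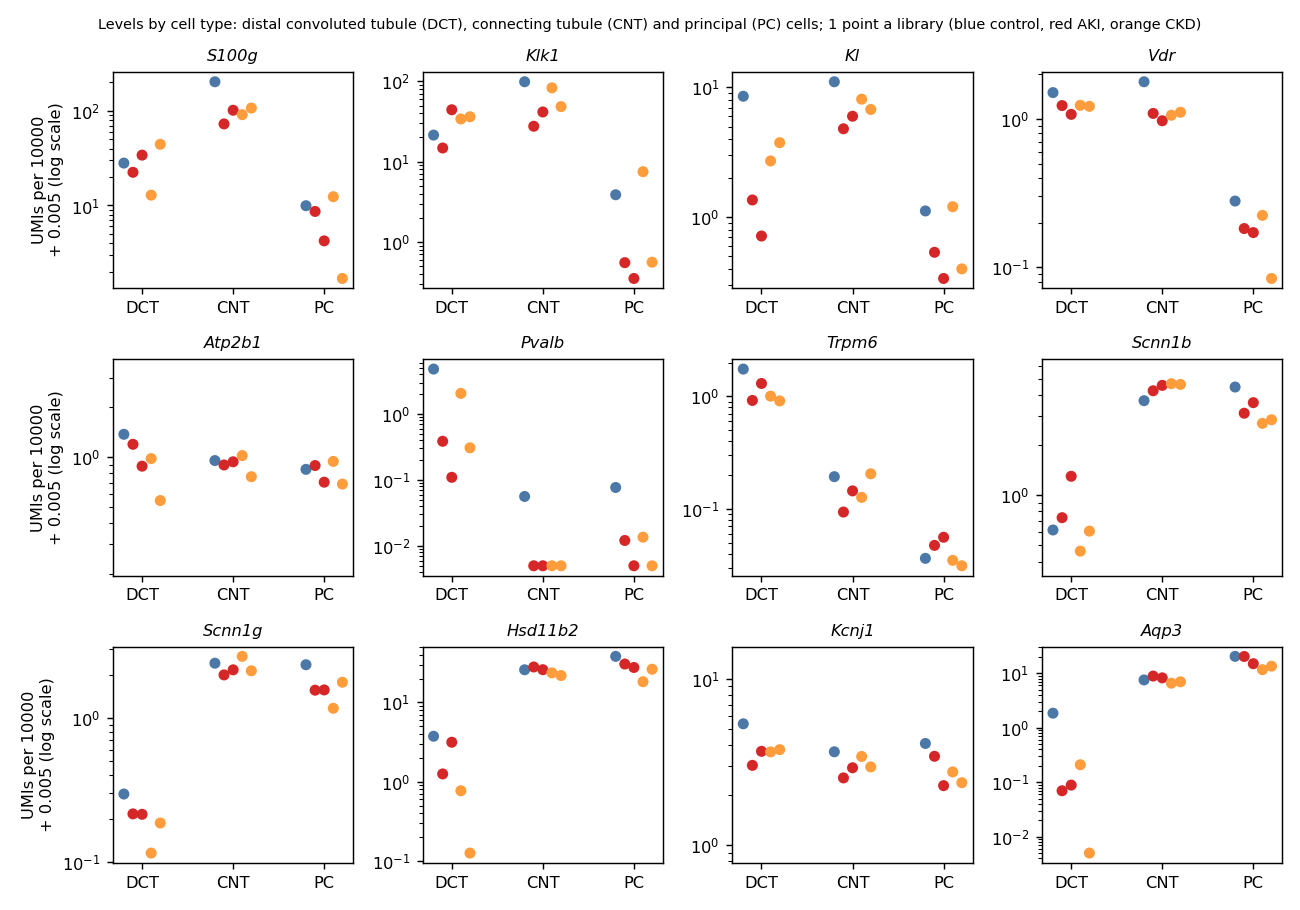
Levels of 12 genes in DCT, CNT and principal cells (PC), in UMIs per 10000 plus 0.005 on log axes, with 1 point per library. In every library S100g and Kl lie highest in the CNT and Pvalb and Trpm6 highest in the DCT, and Scnn1b, Scnn1g and Hsd11b2 lie lowest in the DCT.

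Whether the CKD minus AKI difference was itself particular to the CNT was tested as an interaction with cell type. Against the DCT 92 of 12106 genes were called (0.76%), 35 with a more positive (0.289%) and 57 with a more negative difference (0.471%) in the CNT. Against principal cells 42 of 12330 were called (0.341%), 3 more positive (0.0243%) and 39 more negative (0.316%). DESeq2 called 0 and 1 of them, while 712 (5.88%) and 650 (5.27%) genes had an unadjusted p under 0.05. B2m stood at 6.18 and 7.61 in AKI and 4.40 and 2.31 in CKD in the CNT, and at 3.61 and 3.35 in AKI and 6.52 and 3.51 in CKD in the DCT, an interaction of -1.53. Psmb8 stood at 1.08, 1.37, 0.853 and 0.544 in the CNT and at 0.729, 0.921, 1.63 and 0.847 in the DCT (-1.43). For these genes CKD lay below AKI in the CNT and CKD 1 lay above AKI in the DCT. Clu stood at 65.8, 93.1, 65.7 and 43.7 in the CNT and at 80.7, 99.3, 28.6 and 30.4 in the DCT (1.10), so that the lower CKD level was more marked in the DCT.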

How the data were processed

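For each library the authors deposited raw counts, the number of UMIs of every gene in every barcode, which came from Cell Ranger and STAR. The labels name Cell Ranger 7.2.0 and GRCm39, the file headers of AKI and CKD name cellranger 5.0.0, and the control gene list names mm10, so genes were matched by identifier. The study's CellBender and doublet steps are not part of the deposited counts, and neither was repeated, so free RNA and doublets remain.

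The members and the gene lists were chosen with earlier results of these data known. UMIs of the members were summed per library and tested with edgeR 4.0.16 and limma 3.58.1 in R 4.3.3 (TMM, filterByExpr, quasi-likelihood test, Benjamini-Hochberg adjustment) over all 5 libraries in 3 groups. DESeq2 1.42.0 was an alternative. Sums over DCT cells, and over principal cells (Aqp2 and Fxyd4 at least 1 UMI each and 5 together, Aqp2 above Slc34a1 and Slc12a1 together, Slc12a3 under 3, no Ptprc, no CNT cell), were compared with the library as a block. Genes used to choose cells were left out of every count of calls. Sensitivity to doublet-like barcodes was tried by leaving out cells with at least 3 UMIs of a set of markers of other cell types, among them Slc34a1, Lrp2, Slc12a1, Pecam1, Col1a2, C1qa, Cd3e and Cd79a. The restrictions by S100g and intercalated genes were chosen after seeing the data.

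Named genes were the 10 largest rises and 10 largest falls among called genes whose libraries did not overlap between groups (for cell types, with the same sign in every library), up to 4 per list by smallest p, and fixed CNT and injury genes. A few genes to which these rules apply are not reported here. Genes at 0 UMIs in a group were given a bound from a floor of 3 UMIs over that group. Depth per library is given in the text, and intervals are exact binomial ones at the 95% level for counting error. The fit was checked on simulated counts in which 200 genes were altered. For AKI against control it recovered 53% of 2-fold and 94% of 4-fold changes among 10825 genes, and for CKD against AKI 57% and 79% among 10841. For the interactions it recovered far fewer, 8% and 40% against the DCT and 13% and 65% against principal cells. The simulation gave every gene the same spread, so recovery for genes that vary more between libraries was not measured. The altered genes were drawn only from those above a minimum summed count, so recovery for sparse genes was not measured either. Python 3.11.15 with numpy 2.4.6, pandas 2.3.3, scipy 1.17.1 and matplotlib 3.10.9 was used.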

Additional observations from a re-analysis of the deposited data

Results flagged for a closer look

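The CKD minus AKI difference in CNT cells was set against that in DCT cells and in principal cells, and the values below are log2 interactions, CNT minus the other cell type, with an adjusted p under 0.05 by edgeR's quasi-likelihood test. DESeq2 called 0 of the differences from the DCT and 1 from principal cells (Spink1), and without the control library 34 and 5 calls were made. Most calls thus depend on edgeR and on the control library being in the fit, and the cause was not tested. Groups of 1 or 2 libraries allowed no test for a library that stands apart.

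Against the DCT the difference was more positive in the CNT for intercalated cell genes (Slc4a1 4.25, Foxi1 2.99 and Atp6v1g3 2.07), for genes of dividing cells (Cenpf 3.90 and Mki67 3.07), for the claudins Cldn4 (1.66) and Cldn3 (1.53), for Hsd11b2 (1.59) and Clu (1.10), and for Rcan2 (3.48), Cxcl17 (3.34), Sdc1 (2.86), Arhgef38 (2.77) and Edn1 (1.57). In CKD 2 the CNT UMIs of Cenpf and Mki67 came from 3 and 4 of 29 cells, so those differences rest on few cells. Slc4a1 stood at 1.06 and 0.618 in AKI and 0.912 and 0.501 in CKD in the CNT, and at 0.227, 0.0209, 0.00788 and 0 UMIs per 10000 in the DCT, so the DCT side of the Slc4a1 difference rests on few UMIs. In S100g-high, intercalated-low CNT cells none of these 3 was called (1.85 for Slc4a1, 4.07 for Foxi1 and 0.85 for Atp6v1g3, adjusted p = 1, 0.0787 and 0.989), and Slc4a1 was 2.05 without AKI 1 (adjusted p = 1).

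It was more negative in the CNT for MHC class I and immunoproteasome genes (H2-T23 -1.66, H2-Q7 -1.65, B2m -1.53 and Psmb8 -1.43), for MHC class II genes (Cd74 -2.12, H2-Aa -1.94 and H2-Ab1 -1.85), and for interferon response genes (Cmpk2 -3.63, Epsti1 -2.67, Iigp1 -2.43 and Igtp -2.08). Macrophage and lymphocyte genes were among them as well (Sirpa -4.04, C1qb -2.06, Ccl5 -1.93, Lyz2 -1.84 and C1qa -1.81), and so were proximal tubule genes (Fbp1 -3.33, Miox -3.28, Adh1 -3.05, Cldn2 -2.87, Keg1 -2.84, Gsta2 -2.76, Slc34a1 -2.10, Slc5a2 -2.08 and Gpx3 -1.09) and Lgals1 (-2.80).

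Against principal cells the difference was more positive in the CNT for Cdkn1c (5.30), Aldh1l2 (3.85) and Thsd7a (2.73). It was more negative for proximal tubule genes (Ugt2b37 -7.05, Pdzk1 -3.37, Pck1 -3.30, Spp2 -3.15, Acsm2 -2.82 and Slc5a2 -2.72), for immune genes (C3 -4.29, Sirpa -2.83, Ccl5 -2.34, Ctss -2.30, H2-Eb1 -2.27, Rsad2 -2.22, Cd74 -2.08, Lyz2 -1.82 and Csf1 -1.69) and for Spink1 (-3.51).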

How the results depend on the processing

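Counts of called genes moved with the settings. The 16 calls of CKD against AKI became 39 with DESeq2 (5 shared), 195 with no low-count filter, 8 with at most 15% mitochondrial UMIs, 89 with Slc8a1 and Trpv5 at 5 UMIs or more, 3 without mixed barcodes (Pigr, Cenpf and Acp5), 1 without cells of high intercalated markers (Cenpf), 4 in S100g-high cells with low intercalated markers, 1 with AKI and CKD libraries only (Cenpf), and 1 to 259 with each library left out (1 without control 1, 87 without AKI 1, 41 without AKI 2, 259 without CKD 1 and 129 without CKD 2). The 1059 calls of AKI against control became 325 with DESeq2 (324 shared; 69.8% higher, against 54.2%), 1616 with no filter, 594 without cells of high intercalated markers (39.1% higher), 75 in the S100g-high cells, and 661 to 2107 with a library left out (712 without AKI 1, 661 without AKI 2, 2107 without CKD 1 and 1835 without CKD 2), and 41.1% were higher at 15% mitochondrial UMIs. The 350 of CKD against control became 125 with DESeq2 (85.6% higher, against 59.4%), 783 with no filter, 38 in the S100g-high cells and 425 to 647 with a library left out (625 without CKD 1 and 647 without CKD 2), with 36.2% higher at 15% mitochondrial UMIs and 79.9% without mixed barcodes. The 1635 of CNT against DCT became 786 at 15% mitochondrial UMIs, 975 in the S100g-high cells and 1100 to 1588 with a library left out. The 1693 of CNT against principal cells became 562 at 15% mitochondrial UMIs, 753 without cells of high intercalated markers and 1007 to 1408 with a library left out (1007 without AKI 1 and 1128 without AKI 2). The 92 interactions with the DCT became 0 with DESeq2, 44 at 15% mitochondrial UMIs, 43 without mixed barcodes, 54 without cells of high intercalated markers, 59 in the S100g-high cells and 20 to 149 with a library left out. The 42 with principal cells became 1 with DESeq2, 126 with no filter, 66 at 5 UMIs, 13 without mixed barcodes and 5 to 205 with a library left out (5 without control 1, 125 without CKD 1 and 205 without CKD 2). The cause of these moves was not tested. The control share was 7.86 times the treated mean, and 3.16 times of barcodes without Ptprc. Thinned to 1500 UMIs, the mean share of CNT cells with a UMI fell from 84.2% to 67.0% for Aqp2, 87.3% to 50.3% for Aqp3, 73.5% to 24.2% for Atp6v1b1, 93.0% to 82.5% for Hsd11b2, 78.6% to 48.8% for Klk1, 88.3% to 73.0% for S100g, 91.4% to 44.8% for Scnn1b, 84.7% to 33.2% for Scnn1g and 18.5% to 2.41% for Trpv6. Directions turned for Hist1h1c between CKD and AKI (0.0681), Fgg in CKD against control (-3.25) and Kcnj1 against the DCT (0.18) in the S100g-high cells, for Kcnj1 also without cells of high intercalated markers (0.00999), and in the DCT interactions for Slc4a1 at 15% mitochondrial UMIs (-2.24), Cenpf (-3.36 without AKI 1 to 11.997 without CKD 1) and Aqp2 (-3.25 without CKD 2 to 7.93 without CKD 1, against -2.66).

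The replicate numbers of AKI and CKD were not shown to pair libraries: the correlation of deviations was 0.0758 over 10248 genes. With the replicate block 47 genes were called between CKD and AKI, with all 16 among them. With no replicate block for the library, CNT against DCT gave 1166 calls and CNT against principal cells 687.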
